A study of Mus musculus with 14 samples.

Results

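Open chromatin of double-mutant Dnmt3a;Npm1 long-term haematopoietic stem cells (LT-HSC) was compared with that of Npm1-mutant LT-HSC, which asks what a Dnmt3a mutation adds where the Npm1 mutation is present as well. The comparison was between 4 of the 14 ATAC-seq libraries of the series, 2 of Dnmt3a;Npm1 and 2 of Npm1 LT-HSC. All 14 entered the estimate of spread. Regions were kept if they lay on chromosomes 1 to 19 or X and had a mean deposited signal of at least 100 over the 14 libraries, which left 25058 of 705361 regions, or 3.55%. The retained region closest to that limit had a mean equal to it, and the closest one left out had 99.9.

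The labels give the genotype of the Dnmt3a;Npm1 donors as Dnmt3a-flR878H/+;Npm1-frt/+ and that of the Npm1 donors as Npm1-frt/+, on a C57BL/6J background, and the titles call the Npm1 allele Npm1c. Young donors supplied 1000000 marrow cells to each young, lethally irradiated recipient. Every recipient received poly(I:C) 4 weeks after transplantation and tamoxifen 4 weeks later, and marrow was taken and sorted after 4 further weeks. The groups therefore share irradiation, transplantation and both agents, and their labelled genotypes differ in the Dnmt3a allele. The other libraries were LT-HSC from Dnmt3a-flR878H/+ donors (1) and WT (Mx-Cre) donors (2), and cells of the MPP3 progenitor population from Dnmt3a;Npm1 (1), Npm1 (2), Dnmt3a (2) and WT (2) donors. The labels name Mx-Cre for WT alone, so they do not show that the groups match in it. They do not name the recombinase that acts on the frt allele. Nor do they say how completely either allele had recombined in the sorted cells. Whether libraries A and B of a group stem from different animals is not labelled either. The p-values therefore describe variation among libraries, and that variation may be technical.

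Dnmt3a encodes a DNA methyltransferase that places new methyl groups on cytosines, and Npm1 encodes nucleophosmin, an abundant nucleolar protein. DNMT3A mutations are common in clonal haematopoiesis and NPM1 mutations in acute myeloid leukaemia, where both often occur together, and the common NPM1 mutations move the protein to the cytoplasm. In ATAC-seq a transposase inserts sequencing adapters into accessible DNA, so that promoters and enhancers give peaks of reads above a general background, and the share of reads in peaks varies with how well a library is enriched.

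Promoter sequences are shown for the 2 higher and the 2 lower called regions of smallest p that hold a listed gene start. They show the DNA of called promoters in each direction, although the lower pair is not among the 12 lower regions of smallest p. Sequences are from RefSeq, build GRCm38.p6, 250 bases before to 50 after the start, 5′ to 3′ on the gene's strand. Capitals mark any of 11 motifs searched on both strands, which are spelt out with the promoter results. 1700028E10Rik is an uncharacterised gene that starts within Stard13, and its promoter lies at chr5:151368425-151368724 on the plus strand. Zfp644 encodes a zinc finger protein, and its promoter lies at chr5:106696476-106696775 on the minus strand. Samd11 encodes a SAM domain protein (chr4:156255293-156255592, minus strand), and 2900026A02Rik is an uncharacterised gene (chr5:113221227-113221526, minus strand). The first pair belongs to regions higher in Dnmt3a;Npm1 LT-HSC and the last pair to lower regions.
1700028E10Rik: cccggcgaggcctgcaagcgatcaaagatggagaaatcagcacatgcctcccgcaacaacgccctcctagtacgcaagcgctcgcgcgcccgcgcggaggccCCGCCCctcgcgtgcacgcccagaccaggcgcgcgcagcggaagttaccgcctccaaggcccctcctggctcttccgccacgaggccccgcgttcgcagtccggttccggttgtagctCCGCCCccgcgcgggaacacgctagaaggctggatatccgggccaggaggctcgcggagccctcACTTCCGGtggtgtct
Zfp644: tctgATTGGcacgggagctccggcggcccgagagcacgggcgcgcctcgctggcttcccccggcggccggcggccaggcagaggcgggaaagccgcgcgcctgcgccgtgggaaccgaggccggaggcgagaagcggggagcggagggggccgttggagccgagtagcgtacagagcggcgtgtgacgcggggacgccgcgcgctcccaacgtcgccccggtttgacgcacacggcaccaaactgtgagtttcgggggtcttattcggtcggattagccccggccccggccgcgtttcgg
Samd11: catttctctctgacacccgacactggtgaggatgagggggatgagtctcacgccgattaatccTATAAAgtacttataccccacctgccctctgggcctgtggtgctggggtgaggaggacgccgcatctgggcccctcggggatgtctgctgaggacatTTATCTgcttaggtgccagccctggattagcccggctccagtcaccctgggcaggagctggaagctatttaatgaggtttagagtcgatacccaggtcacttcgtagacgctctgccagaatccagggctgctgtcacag
2900026A02Rik: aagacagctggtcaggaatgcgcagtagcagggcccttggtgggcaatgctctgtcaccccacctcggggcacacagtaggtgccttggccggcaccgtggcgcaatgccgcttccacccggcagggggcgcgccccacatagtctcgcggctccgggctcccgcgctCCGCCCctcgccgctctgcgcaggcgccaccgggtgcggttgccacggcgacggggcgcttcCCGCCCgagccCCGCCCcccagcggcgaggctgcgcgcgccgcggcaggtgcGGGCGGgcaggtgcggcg

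These promoters differed in base composition as well as in signal. G and C made up 69.7% of the 1700028E10Rik promoter and 73.3% of the Zfp644 promoter, 56.7% of the Samd11 promoter and 76.0% of the 2900026A02Rik promoter. CG dinucleotides, the sites of DNA methylation, numbered 38 and 47 in the higher pair and 10 and 39 in the lower pair. The Samd11 promoter, which holds the fewest, is also the only member of the 4 with a TATAAA match.

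The libraries of the comparison differed in enrichment before any region was tested. Tested regions held 31.0% and 30.4% of the signal of Dnmt3a;Npm1 libraries A and B, against 19.1% and 15.4% in Npm1 libraries A and B. The 10 other libraries stood between 22.0% and 51.4%, so both Npm1 LT-HSC libraries were below all of them. Reads in regions, estimated from the spacing of low values and given in units of 1000000, came to 18.3 and 16.0 in Dnmt3a;Npm1 and 7.59 and 15.4 in Npm1 LT-HSC, and to 7.33 to 61.3 in the others. Values per library at a region and marker sums below are signal divided by a factor per library (trimmed mean of M values over the tested regions), called normalized signal. Mean values of regions, shares of signal and estimated reads come from deposited signal. The labelled cell type was checked with 8 LT-HSC markers (Mecom, Hlf, Procr, Mllt3, Fgd5, Meis1, Hoxb5 and Gata2). All 8 had tested regions, with a summed normalized signal over 32 regions of 7381 and 6641 in Dnmt3a;Npm1 and of 6611 and 6856 in Npm1 LT-HSC. The other LT-HSC libraries had 6809.6 to 7009.4 and the MPP3 libraries 5621.4 to 6850.4, so the sums of the cell types overlapped and these markers did not separate LT-HSC from MPP3.

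**Figure D1:**
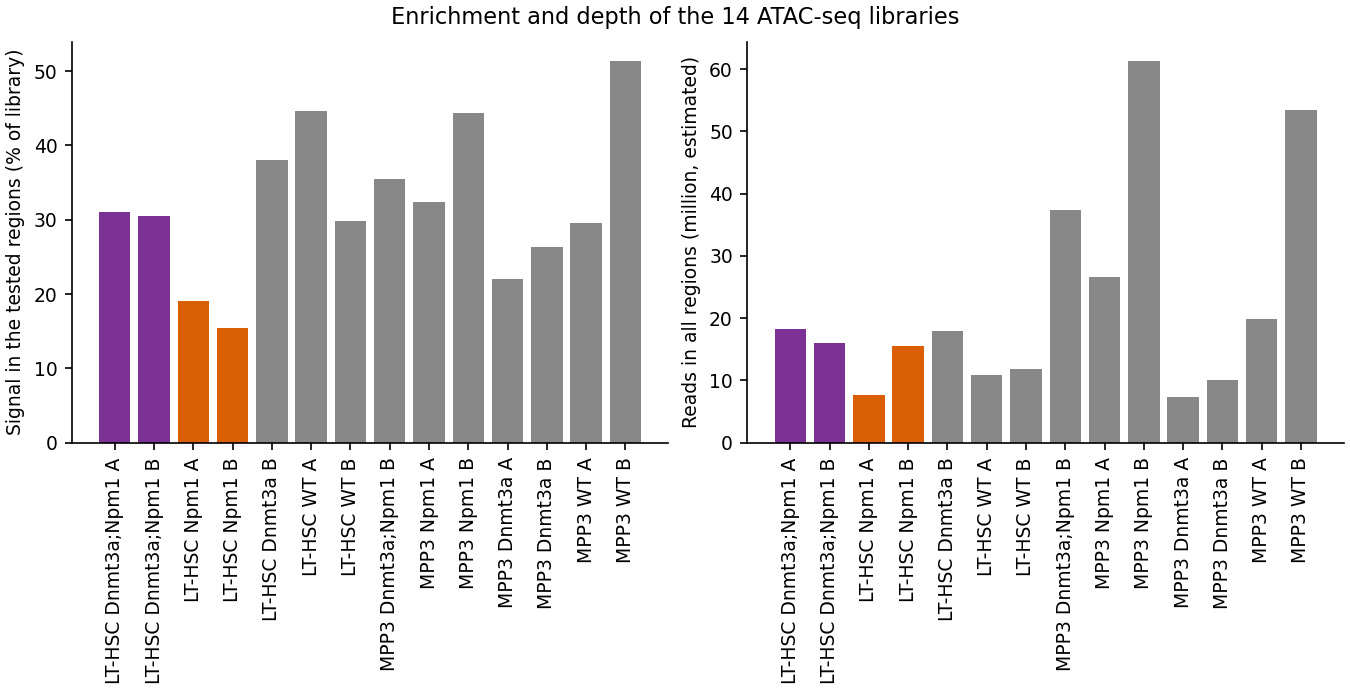
Share of each library's signal in the tested regions (left, %) and estimated reads in all regions (right, in units of 1000000), 1 bar per library, with Dnmt3a;Npm1 LT-HSC in purple, Npm1 LT-HSC in orange and the 10 other libraries in grey. The Npm1 LT-HSC bars, at 19.1% and 15.4%, are the lowest of the left panel.

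Between Dnmt3a;Npm1 and Npm1 LT-HSC, 391 of 25058 regions (1.56%) passed an adjusted p under 0.05 in limma, 260 higher (1.04%) and 131 lower (0.523%) in Dnmt3a;Npm1. Libraries of the groups did not overlap in 12312 regions (49.1%), 6033 higher (24.1%) and 6279 lower (25.1%), and 5202 regions had an unadjusted p under 0.05. The directions differed in kind. Of the 260 higher regions 234 lay within 1000 bp of an annotated end of a gene, where 60.2% of the tested regions lie. Of the 131 lower regions 67 lay inside genes, 39 at gene ends and 25 between genes. Higher regions had strong signal, with a median of 609 in mean deposited signal, and a median log2 difference of 1.25. Lower regions were weak, at a median of 150.3, and differed by a median of -2.11. Uncalled regions had a median value of 196.

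The count rested on single libraries and on the allowance for enrichment. In limma it was 0 without Dnmt3a;Npm1 library B (3163 at an unadjusted p under 0.05), 1098 without Dnmt3a;Npm1 library A, 247 without Npm1 library A and 73 without Npm1 library B. It was 109 and 102 without LT-HSC WT libraries A and B, 197 and 183 without MPP3 WT A and B, 1141 and 1131 without those of MPP3 Dnmt3a, and 92 and 89 when either MPP3 Npm1 library was dropped. With each library's share of signal in tested regions as a covariate, 0 regions passed (1308 at an unadjusted p under 0.05), and the smallest adjusted p was 0.441. With library depth as the covariate, a choice made after seeing the data, 0 passed as well (3244 at an unadjusted p under 0.05). Enrichment separates the groups of this comparison completely, so a Dnmt3a effect and an enrichment effect cannot be told apart from these libraries beyond what the covariate allows.

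**Figure D2:**
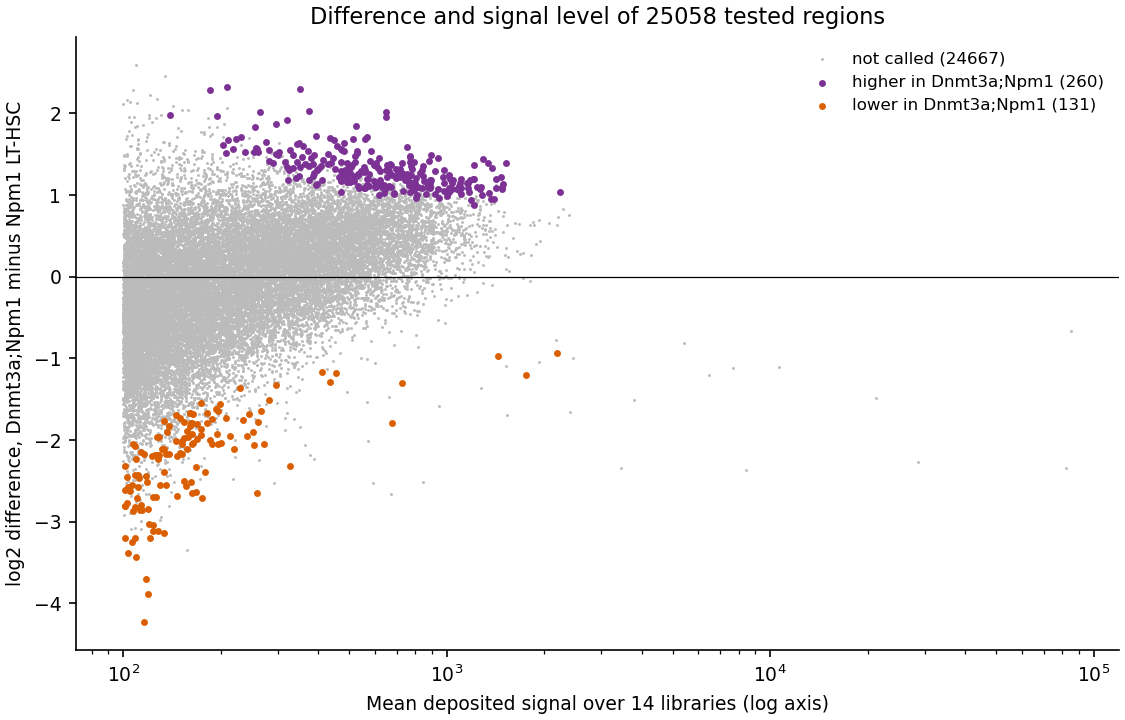
Log2 difference of Dnmt3a;Npm1 minus Npm1 LT-HSC (vertical axis) against the mean deposited signal over 14 libraries (horizontal, log axis) for 25058 regions, 1 point per region. The 260 higher regions (purple) have a median level of 609 and the 131 lower regions (orange) a median level of 150.3.

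Among the higher regions, the smallest p values were at gene starts of zinc finger, phosphatase and uncharacterised genes. The 1700028E10Rik region (chr5:151367829-151369331, mm10), whose promoter is printed above, had 475 and 655 normalized signal in Dnmt3a;Npm1 LT-HSC, against 139 and 144 in Npm1 LT-HSC. Its log2 difference was 1.95 (SE 0.27, n = 2 and 2, adjusted p = 0.00916), a 4.00-fold ratio of the means, on an estimated 429 and 487 reads against 29.2 and 52.6. The other LT-HSC libraries stood with the Dnmt3a;Npm1 libraries here, at 562 in Dnmt3a and 785 and 507 in WT. Zfp644 (chr5:106695071-106697152) had 616 and 950.05 in Dnmt3a;Npm1 and 161 and 213 in Npm1 LT-HSC, a log2 difference of 2.02 (SE 0.29, adjusted p = 0.00916). Its Dnmt3a and WT LT-HSC libraries were at 600.2, 516 and 777, above both Npm1 libraries. Zfp317 (chr9:19621694-19622583), another zinc finger gene, had 363 and 542 in Dnmt3a;Npm1 and 114 and 66.3 in Npm1 LT-HSC, with a log2 difference of 2.30 (SE 0.34, adjusted p = 0.00916), the largest of the 12 named higher regions.

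Ppp2r3a (chr9:101250834-101252173), which encodes a regulatory subunit of protein phosphatase PP2A, had 649.6 and 719 in Dnmt3a;Npm1 and 157 and 222 in Npm1 LT-HSC (log2 difference 1.85, SE 0.27, adjusted p = 0.00916). Lrrc8d, a subunit gene of the volume-regulated anion channel, had 497 and 508 in Dnmt3a;Npm1 and 166 and 138 in Npm1 LT-HSC (1.71, SE 0.27, adjusted p = 0.0169). In both the libraries of a group lay close together. The region of Agpat1, an acyltransferase gene of phospholipid synthesis, also covers the ubiquitin ligase gene Rnf5, and the signal cannot be split between them. It had the strongest signal of the 12, at 1463 and 1934 in Dnmt3a;Npm1 and 683 and 648 in Npm1 LT-HSC (1.33, SE 0.22, adjusted p = 0.0224).

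Cdk1 (chr10:69352128-69353381), the kinase gene that drives entry into mitosis, had 384 and 412 in Dnmt3a;Npm1 and 103 and 133 in Npm1 LT-HSC (log2 difference 1.73, SE 0.30, adjusted p = 0.0247). Its Dnmt3a and WT LT-HSC libraries, at 309, 356 and 226, lay between those groups. Cenpc1, a gene for a centromere protein on which the kinetochore is built, had 693 and 984 in Dnmt3a;Npm1 and 286 and 337 in Npm1 LT-HSC (1.40, SE 0.25). Klf6, an early-response zinc finger factor gene, had 689 and 1017 in Dnmt3a;Npm1 and 312 and 291 in Npm1 LT-HSC (1.46, SE 0.26). Fam76a, Gmds, which encodes an enzyme of fucose synthesis, and Wwox, an oxidoreductase gene at a fragile site, rose by 1.59 (SE 0.26), 1.54 (SE 0.27) and 1.69 (SE 0.30). For these 6 genes the adjusted p was 0.0224 to 0.0247 in limma.

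All 12 named higher regions kept a positive difference when any of the 4 libraries was left out, between 1.13 and 2.68, but none passed without Dnmt3a;Npm1 library B, where the adjusted p was 0.185 to 0.235. In MPP3 the same contrast of Dnmt3a;Npm1 with Npm1 cells gave log2 differences of -0.36 to 0.27 at these 12 regions.

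The lower regions of smallest p were mostly weak, and 11 of the 12 lay inside or between genes. A region 719 bp from the predicted gene Gm36756, inside Ccdc88c (chr12:100984784-100985910), had 36.2 and 23.2 in Dnmt3a;Npm1 and 232 and 236 in Npm1 LT-HSC, a log2 difference of -2.85 (SE 0.48, adjusted p = 0.0247). A region 7290 bp from Rpl6l (chr10:111134070-111135504) had 20.1 and 12.4 in Dnmt3a;Npm1 and 238 and 173 in Npm1 LT-HSC (-3.38, SE 0.58). An estimated 18.2 and 9.3 reads against 50.1 and 63.1 lay behind those values, so the counting error is large. In both regions the Dnmt3a and WT LT-HSC libraries, at 25.2 to 97.0, lay between the groups, closer to Dnmt3a;Npm1.

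Regions inside Bin1, which encodes a membrane-curving protein, and Pex26, a peroxisome import gene, were lower by log2 differences of -3.11 (SE 0.54) and -3.70 (SE 0.66). Pex26 had 30.2 and 1.66 in Dnmt3a;Npm1 and 184 and 169.9 in Npm1 LT-HSC, so its size depends on an estimated 1.2 reads in Dnmt3a;Npm1 library B. A region 11232 bp from Ctsd, the gene for the lysosomal protease cathepsin D, had 28.2 and 51.4 in Dnmt3a;Npm1 and 242 and 245 in Npm1 LT-HSC (-2.55, SE 0.46). Dgkz, a diacylglycerol kinase gene, showed a wide spread within Dnmt3a;Npm1, at 151 and 28.2, against 418 and 464 in Npm1 LT-HSC (-2.65, SE 0.49). Regions inside Rogdi (-2.05, SE 0.38), Lzts1, a leucine zipper gene (-3.03, SE 0.57), and Arhgap26 (-2.65, SE 0.50), were lower as well. The adjusted p was 0.0247 for each of the 12 named lower regions.

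Among the remaining lower regions of the named 12, those of Filip1l and near Mid1 carried more signal. Filip1l, whose region (chr16:57391286-57391903) also lies in Cmss1, was the strongest, at 1398 and 1333 in Dnmt3a;Npm1 and 3435 and 2898 in Npm1 LT-HSC (-1.21, SE 0.22). Its Dnmt3a and WT LT-HSC libraries had 931, 977 and 1085, below both groups. A region 3127 bp from Mid1, a ubiquitin ligase gene on the X chromosome, had 157 and 137 in Dnmt3a;Npm1 and 693 and 807 in Npm1 LT-HSC (-2.32, SE 0.41). With the enrichment covariate the Mid1 difference was -1.06 (SE 0.45). A region 57692 bp from Btbd35f25 on the X chromosome had 86.5 and 79.7 in Dnmt3a;Npm1 and 621 and 467 in Npm1 LT-HSC (-2.64, SE 0.49). Btbd35f25 belongs to a family of near-identical copies, so reads there may be shared between copies and the value is uncertain. The lower regions with printed promoters were called too. Samd11 (chr4:156254228-156255761) had 69.4 and 47.3 in Dnmt3a;Npm1 and 252 and 305 in Npm1 LT-HSC (-2.20, SE 0.44, adjusted p = 0.0252). 2900026A02Rik (chr5:113220359-113221622) had 61.3 and 41.5 in Dnmt3a;Npm1 and 228 and 256 in Npm1 LT-HSC (-2.17, SE 0.44, adjusted p = 0.0273).

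**Figure D3:**
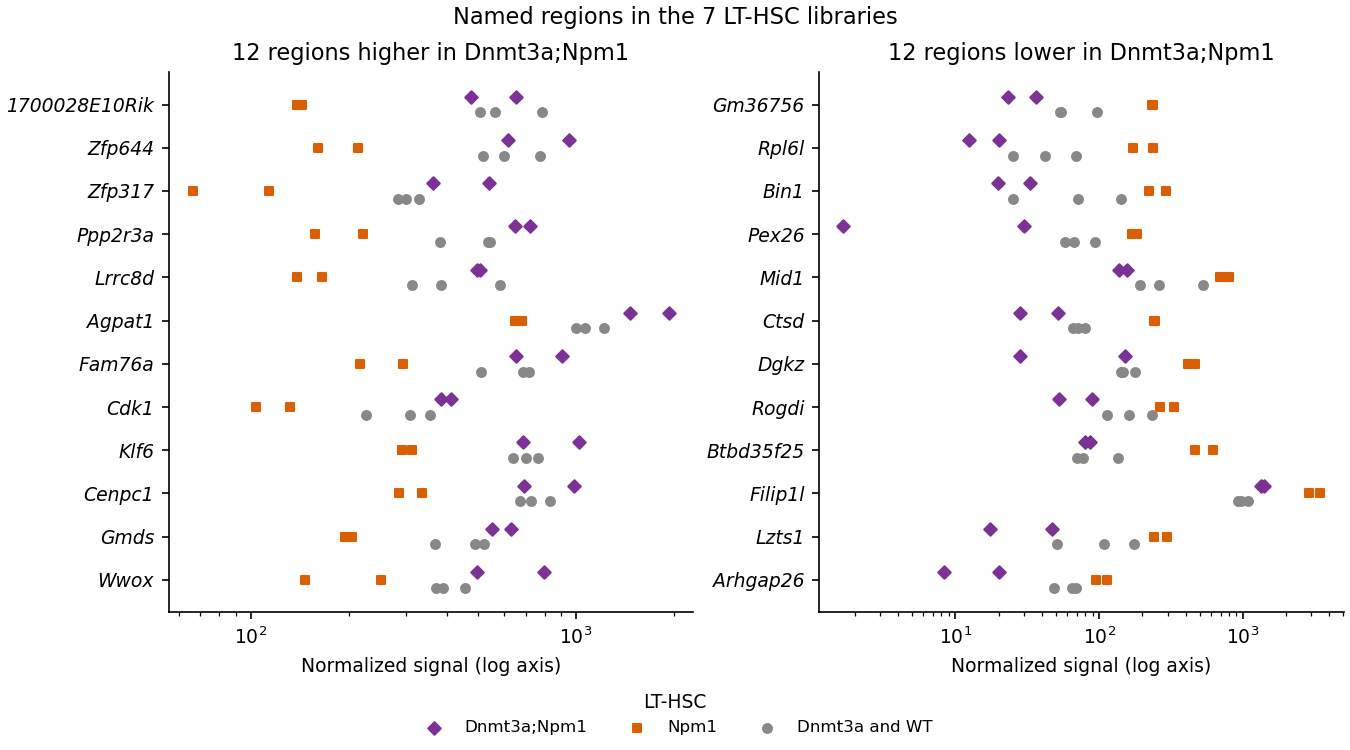
Normalized signal (log axis) of the 12 higher (left) and 12 lower (right) named regions in the 7 LT-HSC libraries, 1 point per library, with Dnmt3a;Npm1 as purple diamonds, Npm1 as orange squares and Dnmt3a with WT as grey circles. In the left panel the Npm1 squares lie below all other points at each gene, for example 139 and 144 at 1700028E10Rik against 475 and 655 in Dnmt3a;Npm1.

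The called regions were also placed among all 14 libraries. In 240 of the 260 higher regions (92.3%) the Npm1 LT-HSC libraries were the lowest pair of the 14, against 2089 of all tested regions (8.34%). The Dnmt3a;Npm1 libraries were the highest pair in 16 of the 260 (6.15%), against 363 of all tested regions (1.45%). Both Dnmt3a;Npm1 libraries lay within the range of the 10 libraries outside the comparison in 125 of the 260 (48.1%), against 14261 of all tested regions (56.9%). In the 131 lower regions the Npm1 libraries were the highest pair in 79 (60.3%) and the Dnmt3a;Npm1 libraries the lowest pair in 36 (27.5%), against 1914 (7.64%) and 373 (1.49%) of all tested regions. Both Dnmt3a;Npm1 libraries lay within the range of the 10 others in 36 of the 131 (27.5%), and both Npm1 libraries did so in 30 (22.9%), against 43.8% of all tested regions for the Npm1 libraries. In the higher set both Npm1 libraries lay within that range in 2 of the 260 regions (0.77%). For each group, then, at least 1 library was outside the others' range in most regions of either set. The rule that called these regions used the 4 libraries for the difference and all 14 for the estimate of spread. The counts therefore describe the calls and are no further test of them.

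The level of the called sets in each library is given by its median log2 level relative to the mean of the 10 libraries outside the comparison. Those 10 entered the calls through the estimate of spread. For the higher set it was 0.03 and 0.26 in Dnmt3a;Npm1 and -1.06 and -1.18 in Npm1 LT-HSC. In the 10 others it ran between -0.25, in MPP3 Dnmt3a library A with 22.0% of its signal in tested regions, and 0.22, in MPP3 Npm1 library B with 44.4%. For the lower set the levels were -0.60 and -1.45 in Dnmt3a;Npm1 and 1.08 and 1.02 in Npm1 LT-HSC. They ran between 0.52 in MPP3 Dnmt3a library A and -0.42 in LT-HSC WT library A, which had 44.6% of its signal in tested regions. LT-HSC WT library B, with 29.9%, close to the Dnmt3a;Npm1 shares, stood at -0.01 for the higher set and -0.07 for the lower set. The part of enrichment in the differences was tested by the covariate alone.

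**Figure D4:**
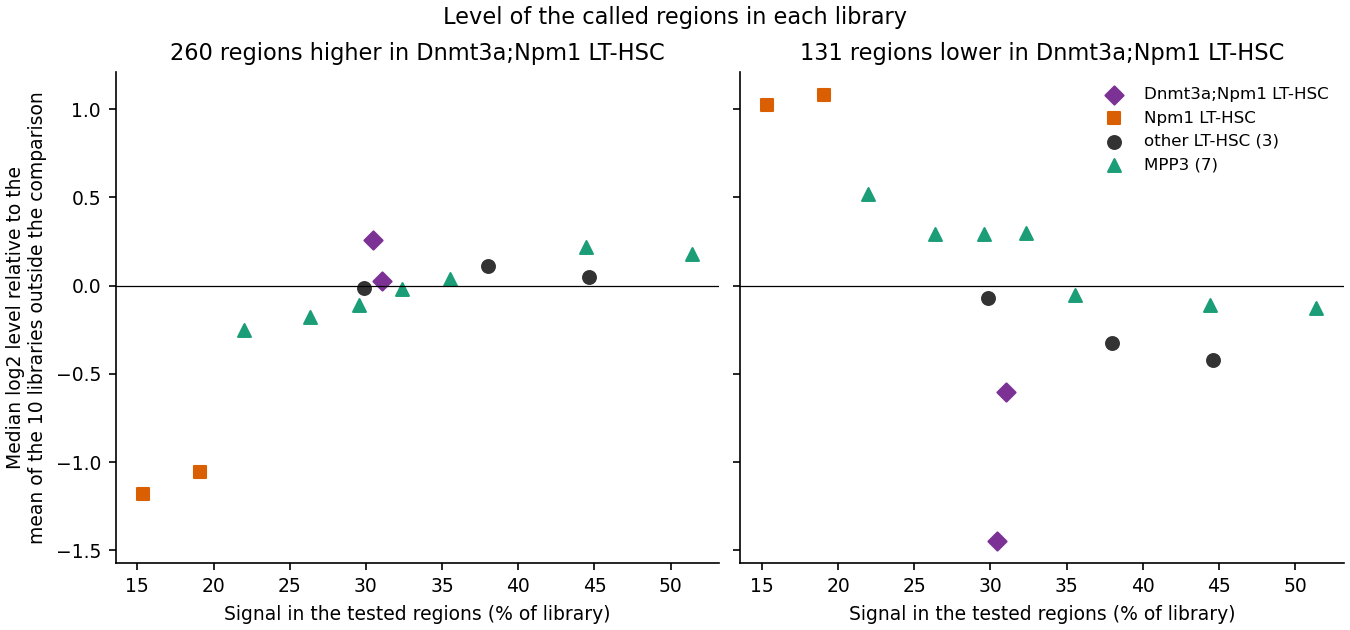
Median log2 level of the 260 higher (left) and 131 lower (right) regions in each library, relative to the mean of the 10 libraries outside the comparison, against the share of the library's signal in tested regions (%), 1 point per library, with Dnmt3a;Npm1 LT-HSC as diamonds, Npm1 LT-HSC as squares, other LT-HSC as circles and MPP3 as triangles. The Npm1 LT-HSC squares are at -1.06 and -1.18 on the left and 1.08 and 1.02 on the right.

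At promoters, the called sets were set against the 13613 RefSeq promoters that overlap a tested region. There were 313 promoters in higher regions and 20 in lower regions. The median GC content was 64.0% in the higher and 63.2% in the lower set, against 62.3% over all. Motifs were searched on both strands, and a match describes the letters only. CCAAT, the NF-Y box, was found in 48.9% of higher promoters and in 6 of the 20 lower ones, against 36.5% of all. TCTCGCGA, the ZBTB33 type, was found in 5.75% of higher and in 0 of 20 lower promoters, against 2.18% of all. GGGCGG, the Sp/KLF box, was found in 74.1% of higher promoters and in 10 of the 20 lower ones, against 67.3% of all. For CCGGAAGT (ETS) the share of higher promoters was 9.58%, against 8.01% of all, for TATAAA 8.31% against 5.96%, for TGANTCA (AP-1) 5.11% against 4.28%, and for CACGTG (E-box) 11.2% against 10.4%. AGATAA, bound by the factor family named after it, was in 3.83% of higher promoters against 5.31% of all, TGACGTCA (CRE) in 2.24% against 3.23%, GCATGCGC (NRF1) in 4.79% against 5.31%, and AAGATGGC (YY1) in 3.51% against 4.24%. No test was made of these shares. Among the printed promoters, CCGCCC, the other strand of GGGCGG, occurs in 1700028E10Rik and in 2900026A02Rik, a higher and a lower region.

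Gene lists were described by their counts and medians, beside 1.04% of all tested regions called higher, 0.523% called lower and a median log2 difference of -0.01. Of 559 listed genes 462 had a tested region. In the early response and AP-1 list, immediate transcription factors that answer to signals, 5 of 85 regions (5.88%) were higher and 0 lower, and the median was 0.31. The members were Klf6, given above, Nr4a3, Zfp36, Maff and Batf. Nr4a3, an orphan nuclear receptor gene, had 375 and 461 in Dnmt3a;Npm1 and 157 and 156 in Npm1 LT-HSC (1.39, SE 0.31, adjusted p = 0.038 in limma). A region 1414 bp from Zfp36, whose protein destabilises cytokine mRNA, had 1333 and 982 in Dnmt3a;Npm1 and 602 and 489.7 in Npm1 LT-HSC (1.07, SE 0.25, adjusted p = 0.0405). Maff (1.11, SE 0.26) and Batf (1.18, SE 0.29), genes of the bZIP family to which AP-1 belongs, rose too. With the enrichment covariate the median was 0.17, and relative to all regions it was -0.09 with background subtracted.

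Lists of genes that every dividing cell uses lay above the median of all regions. In the proteasome, ubiquitin and protein folding list 3 of 43 regions (6.98%) were higher, with a median of 0.40. They were Sec62, of protein import into the endoplasmic reticulum, at 465 and 401 in Dnmt3a;Npm1 and 91.0 and 190.1 in Npm1 LT-HSC (1.68, SE 0.30, adjusted p = 0.0247), and the chaperone genes Hspa8 (1.18, SE 0.24) and Hsp90b1 (1.08, SE 0.26). In the splicing and RNA processing list 2 of 30 (6.67%) were higher, Srsf7 (1.15, SE 0.24, adjusted p = 0.0314) and Hnrnpk (1.01, SE 0.24, adjusted p = 0.0417), and the median was 0.51. Cytosolic ribosomal protein genes had a median of 0.34 over 65 regions, oxidative phosphorylation genes 0.30 over 29 and nucleolar and ribosome biogenesis genes 0.22 over 40, with 0 called in each and their smallest adjusted p at 0.0952, 0.0861 and 0.0713. In the nucleolar list, which covers the compartment of nucleophosmin, the members of smallest p were Bop1 (-1.86, SE 0.53), Ncl (1.08, SE 0.32) and Nat10 (0.93, SE 0.29), none past the threshold. Most regions of these 5 lists, 75.0% to 93.8%, lay at gene ends. With the enrichment covariate their medians were 0.02 to 0.21, where all regions stood at 0.02, and relative to all regions the nucleolar list turned to -0.01 with that covariate and the splicing list to -0.24 with background subtracted.

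In the cell cycle list 1 of 65 regions (1.54%) was higher, Cdk1, and the median was 0.18, turning negative relative to all regions with the enrichment covariate (-0.04) and with background subtracted (-0.24). Cdk6, a kinase gene of G1 phase, had 191 and 191 in Dnmt3a;Npm1 and 37.2 and 80.7 in Npm1 LT-HSC (1.72, SE 0.47, adjusted p = 0.0622), and Ccnd2, a cyclin D gene, had 862 and 914 in Dnmt3a;Npm1 and 399 and 588 in Npm1 LT-HSC (0.87, SE 0.24, adjusted p = 0.0657). Neither passed the threshold.

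Calls in the lists of chromatin genes and of genes mutated in leukaemia were all higher, against 1.04% of all tested regions called higher. In the Polycomb, MLL and menin list 2 of 52 regions (3.85%) were higher and the median was 0.15, negative relative to all regions with loess (-0.06) and with background subtracted (-0.07). Ezh2, the Polycomb methyltransferase gene, had 709 and 709 in Dnmt3a;Npm1 and 319 and 328 in Npm1 LT-HSC (1.12, SE 0.26, adjusted p = 0.0397). Asxl2, which encodes a partner of the BAP1 deubiquitinase, had 784 and 685 in Dnmt3a;Npm1 and 360.02 and 317 in Npm1 LT-HSC (1.11, SE 0.24, adjusted p = 0.0341). At each the Dnmt3a and WT LT-HSC libraries were near Dnmt3a;Npm1, at 679 to 799 for Ezh2 and 702 to 926 for Asxl2. A region inside Kmt2d, the next member of that list by p, was lower without passing (-2.425, SE 0.65). It had 133 and 41.5 in Dnmt3a;Npm1 and 635 and 277 in Npm1 LT-HSC. The DNA methylation list had a median of 0.21, which relative to all regions was -0.01 with quantile normalization and -0.48 with background subtracted. In it 1 of 29 regions (3.45%) was higher, Idh1, a gene for the isocitrate dehydrogenase whose mutant form blocks TET enzymes, at 593 and 742 in Dnmt3a;Npm1 and 319 and 239 in Npm1 LT-HSC (1.25, SE 0.25, adjusted p = 0.0252). A region inside Tet2, a gene for such an enzyme, went the other way without passing (-1.63, SE 0.48, adjusted p = 0.0746). The list of genes mutated in acute myeloid leukaemia had 2 of 75 (2.67%) called, Idh1 and Ezh2 again, with a median of 0.07. The TNF and NF-kB list had 1 of 54 (1.85%) called, Birc2, an inhibitor of apoptosis gene (1.15, SE 0.28, adjusted p = 0.0448), against a median of -0.30. Its next members by p, a region inside Relb (-1.29, SE 0.46) and a region near Tnfaip2 (-0.84, SE 0.34), were lower without passing.

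Blood lineage lists had negative medians. In the myeloid list 1 of 41 regions (2.44%) was called lower, at Mpo, the myeloperoxidase gene of neutrophil granules (chr11:87793148-87794349), which fell by 2.52 on the log2 scale (SE 0.62, adjusted p = 0.0452). It had 68.4 and 6.64 in Dnmt3a;Npm1 and 184 and 129.6 in Npm1 LT-HSC, and 56.8 to 82.4 in the Dnmt3a and WT LT-HSC libraries. The value rests on an estimated 4.9 reads in Dnmt3a;Npm1 library B and was -1.13, no longer past the threshold, without that library and -3.90 without Dnmt3a;Npm1 library A. It did not pass either when any 1 of the Npm1 or WT libraries of LT-HSC or MPP3 was left out. A neighbouring region of Lpo that also overlaps Mpo had 281 and 117 in Dnmt3a;Npm1 and 583 and 697 in Npm1 LT-HSC (-1.79, SE 0.38, adjusted p = 0.0341). The list median was -0.39, with 13 of 41 positive, and was negative relative to all regions under each of the 5 other scalings and with the enrichment covariate. Prtn3, another granule protease gene, had 232 and 173 in Dnmt3a;Npm1 and 488 and 429 in Npm1 LT-HSC (-1.17, SE 0.30, adjusted p = 0.0516), and Csf1r, the macrophage growth factor receptor gene, 96.5 and 92.9 in Dnmt3a;Npm1 and 242 and 279 in Npm1 LT-HSC (-1.42, SE 0.44, adjusted p = 0.0855).

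Markers of other cells that a sort could hold were summed beside these values. Over 8 myeloid progenitor markers, 7 with tested regions (Ms4a3 had none), the summed normalized signal of 15 regions was 2343 and 2506 in Dnmt3a;Npm1 and 3948 and 3563 in Npm1 LT-HSC, 2008 to 2643 in the other LT-HSC and 2949 to 4032 in MPP3. B lymphoid markers, 2 of 4 with tested regions, gave 354.0 and 209.9 in Dnmt3a;Npm1, 672.5 and 760.5 in Npm1 LT-HSC and 151.6 to 707.4 in the other LT-HSC. T and NK markers, 1 of 4, gave 860.8 and 761.7 in Dnmt3a;Npm1, 1419.4 and 1270.3 in Npm1 LT-HSC and 513.0 to 1230.5 in the other LT-HSC. Mast and basophil markers, 2 of 4, gave 415.3 and 561.7 in Dnmt3a;Npm1, 655.9 and 648.1 in Npm1 LT-HSC and 143.6 to 341.8 in the other LT-HSC. Non-blood markers, 2 of 4, gave 679.8 and 693.7 in Dnmt3a;Npm1, 792.5 and 821.0 in Npm1 LT-HSC and 582.5 to 1012.2 in the other LT-HSC. Erythroid markers, 2 of 4, gave 450.5 and 492.9 in Dnmt3a;Npm1, 583.5 and 518.5 in Npm1 LT-HSC and 490.1 to 786.9 in the other LT-HSC. The Npm1 libraries stood above both Dnmt3a;Npm1 libraries in each of these sums, and above the other LT-HSC as well for the myeloid, mast and T and NK sums. The markers with no tested region were Gata1, Alas2, Cd79a, Vpreb1, Bcl11b, Cd3e, Gzmb, Cpa3, Mcpt8, Cdh5 and Cxcl12. In MPP3 libraries the sums were 143.1 to 472.5 for B lymphoid, 426.8 to 1144.9 for T and NK and 378.7 to 546.0 for mast markers. They were 499.4 to 878.6 for non-blood and 445.6 to 588.9 for erythroid markers. No sum was adjusted for enrichment, which was lowest in the Npm1 LT-HSC libraries (19.1% and 15.4% of signal in tested regions). More cells of a type, more open chromatin per cell and lower enrichment therefore cannot be told apart in these bulk sums. The part of such cells in the result was not tested.

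The lymphoid list had a median of -0.30 over 48 regions and 0 calls, with a region inside Ets1 at -1.82 (SE 0.47, adjusted p = 0.056) and a region near Ikzf1 at -1.60 (SE 0.49), both lymphoid transcription factor genes. For erythroid and megakaryocyte genes 0 of 36 regions were called and the median was -0.06, which turned positive relative to all regions with loess (0.06), with background subtracted (0.21) and with the enrichment covariate (0.25). Its leading member was Selp, the P-selectin gene, with 364 and 571 in Dnmt3a;Npm1 and 176 and 222 in Npm1 LT-HSC (1.19, SE 0.32, adjusted p = 0.0614). The niche and stroma list had a median of -0.37 over 21 regions, 0 called, which relative to all regions was 0.22 with background subtracted and 0.05 with the enrichment covariate. Its member of smallest p was Pdgfrb (-1.48, SE 0.48). Genes of mast cells, basophils and eosinophils had a median of -0.17 over 12 regions, 0 called, positive relative to all regions with loess (0.07) and with background subtracted (0.14), and were led by Siglecf (-1.63, SE 0.56). Developmental transcription factor loci that are silent in blood had the lowest median, -0.44 over 38 regions with 0 called and 8 positive. Sox3 had 200.1 and 265 in Dnmt3a;Npm1 and 730.4 and 562 in Npm1 LT-HSC (-1.46, SE 0.39, adjusted p = 0.06). With the enrichment covariate the median of that list was -0.02.

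Stem cell and Hox genes, the programme most tied to mutant NPM1 in leukaemia, gave no call. Stem cell identity genes had a median of -0.02 over 100 regions, 50 of them positive, which relative to all regions became 0.10 with loess, 0.09 with quantile normalization, 0.25 with background subtracted and 0.02 with the enrichment covariate. The Hox and Meis list had a median of -0.14 over 41 regions, 17 of them positive, and was negative relative to all regions under each of those settings. Its sign differed by position, with a median of -0.23 in its 27 regions at gene ends and 0.26 in those elsewhere. Both lists had 0 called, where 1.56% of all tested regions were called. In lists of this size 0 is near that share, so it says little about these genes. A region inside Meis1, a Hox cofactor gene, had 235 and 289 in Dnmt3a;Npm1 and 143 and 77.8 in Npm1 LT-HSC (chr11:18924563-18925490, 1.27, SE 0.36, adjusted p = 0.0705), while the region at its start had 544 and 390 in Dnmt3a;Npm1 and 631 and 493 in Npm1 LT-HSC (-0.27, SE 0.26). The next members of the Hox and Meis list by p, Hoxb1 (-1.70, SE 0.56) and Hoxb8 (-1.43, SE 0.54), were lower without passing. Hlf, a stem cell transcription factor gene, had 377 and 442 in Dnmt3a;Npm1 and 190.4 and 242 in Npm1 LT-HSC (0.92, SE 0.28, adjusted p = 0.0843). The 2 Hoxa9 regions were at -0.66 (SE 0.28) and -0.53 (SE 0.35), the 3 Hoxa10 regions between -1.07 and 0.10, and the 2 Cebpa regions, of a myeloid transcription factor gene, at -0.03 (SE 0.23) and -0.11 (SE 0.47). The smallest adjusted p among the Hoxa9, Hoxa10 and Cebpa regions was 0.186.

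The loci of the mutated genes themselves did not pass. The Npm1 start (chr11:33161861-33163699) had 495 and 288 in Dnmt3a;Npm1 and 546 and 294 in Npm1 LT-HSC, a log2 difference of -0.09 (SE 0.33), so the libraries of each group differed more than the groups. Dnmt3a had 6 tested regions with differences of -0.30 to 0.73, the smallest adjusted p being 0.162. Accessibility at these loci does not report the alleles, so it checks no label.

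**Figure D5:**
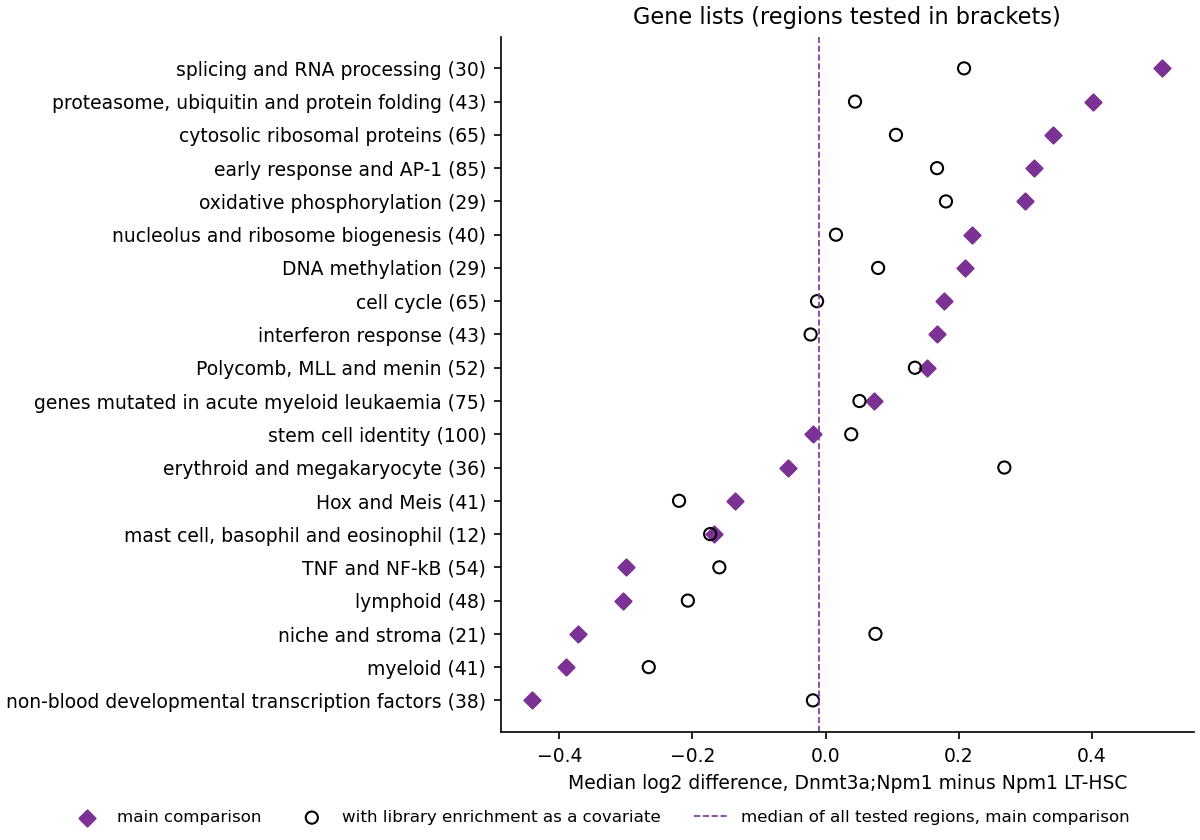
Median log2 difference of Dnmt3a;Npm1 minus Npm1 LT-HSC over the tested regions of 20 gene lists (number of regions in brackets), as purple diamonds for the comparison without a covariate and open circles with library enrichment as a covariate, and a dashed line at the median of all tested regions, -0.01. The diamonds run from -0.44 to 0.51 and the circles from -0.27 to 0.27.

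Allowing for enrichment, the differences at called regions kept their direction but lost their calls. The 260 higher regions had a median of 1.00 with the covariate, against 1.25 without, and the 131 lower regions -1.67 against -2.11, with the same sign in all 391. The standard error grew, from a median of 0.42 over all regions without the covariate to 0.59 with it, and 220 of the higher and 93 of the lower regions had an unadjusted p under 0.05. Of the 24667 uncalled regions 18844 kept their sign, and 1308 of all 25058 regions had an unadjusted p under 0.05 in limma with the covariate. The 391 regions were called on the same libraries, so these counts describe the calls and are no further test of them. Medians by position shrank to 0.05 at gene ends, -0.04 inside genes and -0.02 between genes, against 0.12, -0.25 and -0.16 without the covariate. Relative to all regions these medians changed sign with background subtracted, to -0.17, 0.30 and 0.54, and the one between genes did so with loess as well (0.07). The regions of smallest p with the covariate were again Zfp644 (2.23, SE 0.41, adjusted p = 0.441) and Ppp2r3a (2.09, SE 0.39, adjusted p = 0.441), then the Mx1 start and a region inside Itsn1, an endocytic scaffold gene (1.78, SE 0.40, adjusted p = 0.904). On the lower side were Rpl6l (-3.89, SE 0.86), Arhgap26 (-2.98, SE 0.72), a region near Gm6066 (-3.24, SE 0.81) and Ctsd (-2.62, SE 0.67), each with an adjusted p of 0.904. The slope of the covariate comes from the spread within groups of all genotypes, and the Npm1 LT-HSC shares lie below the range of the others, so the adjustment extends beyond the libraries that set most of it.

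Whether the Dnmt3a step depends on the Npm1 state was tested as the step in Npm1-mutant LT-HSC minus that in LT-HSC without the Npm1 mutation, where the Dnmt3a group is 1 library assumed to vary like the other groups. Limma called 0 regions (1722 at an unadjusted p under 0.05), and the smallest adjusted p was 0.689. The regions of smallest p were 1700028E10Rik (2.12, SE 0.43), Gmds (1.99, SE 0.43), Zfp644 (2.10, SE 0.46) and Sec62 (2.12, SE 0.48) on the higher side. On the lower side they were Gm36756 (-3.65, SE 0.76), Rpl6l (-4.37, SE 0.92), a region inside Krt78 (-3.80, SE 0.84) and a region of LOC100043315 (-2.98, SE 0.67). Without Dnmt3a;Npm1 library A 14 regions were called.

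The same step in MPP3 (1 Dnmt3a;Npm1 and 2 Npm1 libraries) also gave 0 calls (174 at an unadjusted p under 0.05), with a smallest adjusted p of 1.0. These MPP3 libraries were closer in enrichment, at 35.5% in Dnmt3a;Npm1 and 32.3% and 44.4% in Npm1. The 260 regions that were higher in LT-HSC had a median of -0.08 in MPP3, with 83 positive, and the 131 lower regions had -0.10, with 55 positive. Over all tested regions the MPP3 median was 0.003, with 50.4% positive, and at gene ends it was -0.02. The difference between the cell types was tested directly and gave 0 calls (2201 at an unadjusted p under 0.05, smallest adjusted p = 0.542). Ppp2r3a (2.18, SE 0.43), 1700028E10Rik (2.11, SE 0.43), Cenpc1 (1.76, SE 0.39) and Cnep1r1 (2.65, SE 0.61) had the smallest p among positive differences. Regions of Tmem267 (-3.18, SE 0.68), Celf4 (-3.12, SE 0.73), Btbd35f25 (-3.09, SE 0.78) and Epha10 (-4.07, SE 1.03) had the smallest among negative ones. In MPP3 itself the leading regions, with adjusted p of 1.0, were Mx1, Hoxa5 (1.81, SE 0.43), Tmem267 (2.02, SE 0.53) and Gm13218 (1.15, SE 0.38) on the higher side. On the lower side they were a region 52881 bp from Frmd4a (-2.58, SE 0.61), AY036118 (-0.74, SE 0.21), Gm22973 (-1.93, SE 0.59) and Lpo, a lactoperoxidase gene (-1.40, SE 0.46). The Lpo region also overlaps Mpo. The AY036118 region had a mean deposited signal of 85225, against a median of 198 over all tested regions. No problem regions were removed, so its value is uncertain.

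The Mx1 start (chr16:97462728-97465500) was the region of smallest p in MPP3 and among the 4 of smallest p on the higher side with the covariate in LT-HSC. Mx1 is an interferon-induced antiviral gene, and its promoter drives Cre in Mx-Cre mice. It had 918 and 696 normalized signal in Dnmt3a;Npm1 and 408 and 285 in Npm1 LT-HSC, and 729.6 in Dnmt3a;Npm1 and 116 and 145 in Npm1 MPP3. The libraries of the Dnmt3a and WT (Mx-Cre) genotypes lay between 446 and 1620.4, so the 4 Npm1 libraries were the lowest of the 14. The log2 difference in LT-HSC was 1.22 (SE 0.41, adjusted p = 0.105), 2.25 (SE 0.48, adjusted p = 0.904) with the covariate, and in MPP3 it was 2.46 (SE 0.50, adjusted p = 1.0). Among the 4 libraries of the comparison alone the covariate left -0.17. Whether reads from an Mx1 promoter in a transgene contribute to this signal was not tested. The interferon response list, which includes Mx1, had 0 calls in 43 regions and a median of 0.17, which was -0.02 with the covariate. Also among its members of smallest p were Xaf1 (-1.57, SE 0.45, adjusted p = 0.069) and a region inside Irf2 (-1.47, SE 0.46, adjusted p = 0.0873), both lower without passing.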

How the data were processed

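ATAC-seq of 14 mouse libraries was analysed from a table of signal per region of build mm10, deposited by the authors. These deposited signal values are written without decimals, although low ones fall on multiples of a step per library, so they are reads multiplied by a factor and rounded, not counts. Reads were estimated by dividing by that step. Per the submitters' processing notes, R 3.6.0, DiffBind 2.12.0, edgeR 3.26.4 and HOMER 4.10 were used, without stated roles; which aligner and peak caller were used is not given in the sources used here. No list of problem regions was applied.

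Factors by a trimmed mean of M values (30% of ratios, 5% of levels) were computed over the tested regions. limma 3.58.1 in R 4.3.3 was fitted to log2(signal/factor + 4) over all 14 libraries in 8 groups, with a robust, trended prior variance, and p-values were two-sided and Benjamini-Hochberg adjusted over all 25058 regions within a comparison. Groups of 1 library were assumed to vary like the others. A log2 difference understates the change of low regions because of the pseudocount of 4. A second fit added log2 of each library's share of signal in tested regions. Other tables used Python 3.11.15 and pandas 2.3.3.

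A region took a RefSeq GRCm38.p6 gene with an end within 1000 bp, otherwise the gene it lies in, otherwise the nearest within 100000 bp. The class "gene end" means within 1000 bp of a listed start or of either bound of a gene. This annotation rule was set after values were seen. A gene is a label of position. The text names, per direction, the 12 called regions with the smallest p and no overlap of libraries, 4 in each direction of the other comparisons, up to 3 genes per list, the called list members, the genes of the printed promoters and the regions of Npm1, Dnmt3a, Hoxa9, Hoxa10, Meis1 and Cebpa. The comparison and the gene lists were chosen with earlier results of these data known. Alternatives were other scalings, filters, pseudocounts, library sets, a replicate block, and, chosen after seeing the data, library depth as a covariate and library quality weights.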

Additional observations from a re-analysis of the deposited data

How the results depend on the processing

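The count of 391 regions called between Dnmt3a;Npm1 and Npm1 LT-HSC depended strongly on settings. It was 5466 scaled to the library total (5381 higher, 85 lower, with the median of all regions moved to 0.87), 1605 with background subtracted (1518 higher, 87 lower, median 0.86), 701 with quantile normalization and 22 with cyclic loess (7 higher, 15 lower). With a mean value of at least 50 it was 1021, of at least 200 it was 120, and with no filter 0 (limma, 58979 at an unadjusted p under 0.05). With the 4 libraries alone it was 729 (248 higher, 481 lower), with neither a robust nor a trended prior 4, with library depth as a covariate 0 (3244 at an unadjusted p under 0.05) and with library quality weights 43, the last pair chosen after seeing the data. Leaving out 1 library gave 0 to 1141. The replicate block gave 649. The labels do not say that letters pair libraries, and in the Dnmt3a;Npm1 and Npm1 LT-HSC pair, the one checked, deviations of equally lettered libraries correlated at -0.04. Median of ratios, pseudocounts of 1 and 16, all contigs and the 7 LT-HSC libraries gave 412, 371, 440, 431 and 444.

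With the enrichment covariate, 4 regions were called under quantile normalization, 3 with background subtracted, 1 with no filter and 2 with quality weights. The difference by Npm1 state had 5 calls with background subtracted, 14 with the 7 LT-HSC libraries and 0 to 14 without 1 library. The difference between cell types had 1 call with quantile normalization, 14 with background subtracted and 22 with the replicate block. These differences could not be fitted to the 4 libraries. Of the 24 named regions, 10 kept their call with loess, 14 and 12 without Npm1 libraries A and B, 2 with neither prior, and 0 without Dnmt3a;Npm1 library B, with the depth covariate and with no filter. Signs reversed with no filter at Filip1l (0.14), Prtn3 (0.16), Hdc (0.14), Relb (0.0062) and Tnfaip2 (0.49), scaled to the library total at Tnfaip2 (0.056), and in the 4 libraries with the covariate at Mx1 (-0.17); the cause was not tested. Depth limits weak regions most: Npm1 library A had 7.59 units of 1000000 reads in regions, the fewest of the 4.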

Other observations

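Signal outside the tested regions also differed between these libraries. The 11 regions on the Y chromosome held 34.9 and 24.2 of each 1000000 units of signal in Dnmt3a;Npm1 LT-HSC, against 53.6 and 58.0 in Npm1 LT-HSC. The MPP3 Dnmt3a;Npm1 library had 37.1, and the 9 other libraries lay between 64.3 and 133. The 3 double-mutant libraries were thus the lowest of the 14, on an estimated 639 and 387 reads in LT-HSC and 1390.3 in MPP3. Whether the groups were matched for sex was not tested. On the X chromosome, 0 of 431 tested regions were called higher and 3 lower in Dnmt3a;Npm1 LT-HSC, with a median log2 difference of -0.04.

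The unplaced contig JH584304, with 50 regions, held 1786 and 1957 of each 1000000 units of signal in Dnmt3a;Npm1 LT-HSC and 2441 and 2112 in Npm1 LT-HSC. Among autosomes the median log2 difference was lowest on chromosome 11, at -0.22, and highest on chromosome 13, at 0.14. Of 2265 tested regions on chromosome 11, 11 were higher and 24 lower. Of 951 on chromosome 13, 17 were higher and 4 lower. Chromosome 11 held the most tested regions, and on chromosome 18, which had 700, 8 were lower. Over all tested regions 1.04% were called higher and 0.523% lower.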
